A study of Homo sapiens with 6 samples.

Results

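The 10 genes described here are a chosen part of the intermediate filament genes outside the keratin family. The cytoplasmic ones encode vimentin (VIM), nestin (NES), desmin (DES), synemin (SYNM), neurofilament light and medium chains (NEFL and NEFM) and internexin alpha (INA). The others are the 3 nuclear lamin genes LMNA, LMNB1 and LMNB2. All 10 were found by gene symbol in a table of 21293 genes. The cells were H2087-LCC, a latency competent derivative, selected in mice, of the human lung adenocarcinoma cell line H2087 and used as a model of dormant metastasis. Poly(A) RNA was sequenced from cells given SB505124 (SB), an inhibitor of the type I TGFβ receptors, for 3 days, from cells given TGFβ for 3 days and from cells given TGFβ for 7 days, with 2 libraries in each of the 3 groups. The reference was therefore receptor inhibition and not untreated cells, and because SB cells were sampled at day 3 only, TGFβ exposure and time in culture cannot be told apart at 7 days.

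Intermediate filament proteins share a central coiled-coil rod that pairs into rope-like polymers. Vimentin filaments fill the cytoplasm of mesenchymal cells and are a classical marker of the epithelial-mesenchymal transition (EMT), whereas simple epithelia are built on keratins. Nestin and synemin are long proteins that do not form filaments alone and copolymerize with vimentin or desmin. Desmin is the filament of muscle, and the neurofilament chains and internexin alpha are the filaments of neurons. A-type lamins, from LMNA, and B-type lamins, from LMNB1 and LMNB2, line the inner nuclear membrane and contribute to the stiffness of the nucleus.

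The values were read counts normalized to library size by the authors and rounded to whole numbers, called normalized counts below. The 6 libraries summed to between 34306283 and 36340734 normalized counts, and the spacing of low values placed the worth of 1 read between 0.896 and 1.098 normalized counts. Differences were tested with limma on log2(normalized count + 1) over the 14395 genes whose mean was at least 10. A gene was called higher or lower at a Benjamini-Hochberg adjusted p under 0.05 over all genes tested. In the study's wording paired libraries are technical replicates, so the p-values measure the spread between libraries and not between independent cultures. At this spread, 29.0% of all genes tested were called at 3 days of TGFβ against SB, 54.5% at 7 days against SB and 33.2% at 7 days against 3 days. Both TGFβ groups were compared with the same 2 SB libraries. Among the lung epithelial markers EPCAM, CDH1, KRT7, KRT8, KRT18 and KRT19, all 6 had a mean of at least 10, and their sum ranged from 101970 to 112407 normalized counts under SB, from 98169 to 110423 after 3 days of TGFβ and from 88277 to 101192 after 7. KRT8 and KRT18 made up most of that sum, and under it CDH1 (E-cadherin) had 371 and 635 normalized counts under SB, 28 and 24 after 3 days and 10 and 9 after 7 (log2 fold changes against SB -4.18 and -5.54, adjusted p = 7.11e-07 and 2.78e-08). EPCAM changed by -0.61 and -1.62 (adjusted p = 0.000411 and 6.24e-08). The keratins of this list did not move together. KRT18 was lower (-0.29 and -0.56, adjusted p = 0.0215 and 0.000144) and KRT7 higher (1.51 and 1.06, adjusted p = 1.85e-06 and 1.57e-05). KRT8 and KRT19 were not called against SB at either time.

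Of the 10 genes, 7 passed the filter on low values (VIM, NES, DES, SYNM, LMNA, LMNB1 and LMNB2). VIM, NES and SYNM were called higher at both times of TGFβ against SB, as was DES, which passed the filter only through the TGFβ groups and so had to differ. LMNB1 and LMNB2 were called lower at both times, and LMNA was called lower at 7 days only. At 3 days against SB, 4 of the 7 were higher, where 14.9% of all genes tested were, and 2 were lower, where 14.0% of all genes were. At 7 days against SB, 4 were higher and 3 lower, against 27.7% and 26.9% of all genes. Without DES, 3 of 6 were higher at each time, with 2 lower at 3 days and 3 lower at 7 days. Between 7 and 3 days, NES and SYNM were higher and LMNB1 and LMNB2 lower, 2 in each direction, against 17.0% and 16.2% of all genes. In bulk RNA, a change in the number of cells that express a gene and a change in RNA per cell cannot be told apart.

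**Figure D1:**
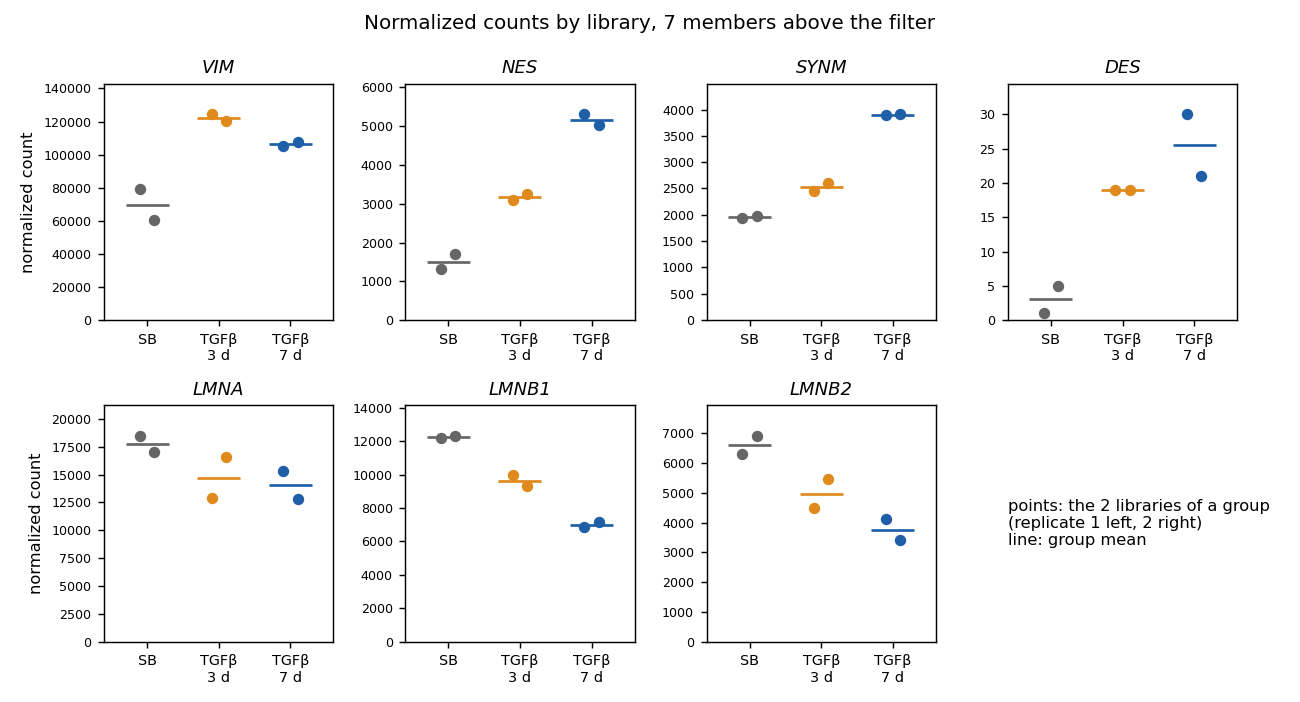
Normalized counts (vertical axes, each from 0) of the 7 genes that passed the filter, with 1 point for each library and a line at the mean of the 2 libraries of a group. VIM, NES, SYNM and DES lay above their SB libraries in all 4 TGFβ libraries, and the 3 lamin genes lay below theirs.

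VIM lies on chromosome 10 (GRCh37, 17270240 to 17279592, plus strand). The SB libraries had 79130 and 60300 normalized counts, those after 3 days of TGFβ 124252 and 120316, and those after 7 days 105320 and 107556. Both SB libraries lay below all 4 TGFβ libraries, and the 7 day libraries lay between SB and 3 days without overlap. VIM was 1.75-fold higher at 3 days than in SB (log2 fold change 0.82, SE 0.11, adjusted p = 0.000169) and 1.53-fold higher at 7 days (log2 fold change 0.62, SE 0.11, adjusted p = 0.000571). The difference between 7 and 3 days, -0.20 on the log2 scale, did not pass the threshold (adjusted p = 0.191). It did pass when the spread was estimated without SB replicate 1 (adjusted p = 0.0256), without SB replicate 2 (adjusted p = 0.0259) or without both (adjusted p = 0.0274). With no filter on low values, both calls of VIM against SB were lost (adjusted p = 0.0641 and 0.0611). VIM-AS1, a long noncoding RNA read from the opposite strand, shares 656 exon bases with VIM, and the library kit did not mark strand, so reads in the shared bases cannot be assigned to either. VIM-AS1 had between 190 and 321 normalized counts in the 6 libraries, a small number beside VIM.

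NES, on chromosome 1 (156638555 to 156647199, minus strand), encodes a filament protein of neural and other progenitor cells. It had 1306 and 1709 normalized counts in SB, 3108 and 3245 at 3 days and 5303 and 5026 at 7 days. The 3 groups were separate and stepped upward with time. NES was 2.11-fold higher at 3 days (log2 fold change 1.09, SE 0.12, adjusted p = 2.8e-05), 3.43-fold higher at 7 days (1.79, SE 0.12, adjusted p = 1.83e-07) and 1.63-fold higher at 7 than at 3 days (0.70, SE 0.12, adjusted p = 0.00121). After a correction of each library for GC content and transcript length, the last of these was 0.46 on the log2 scale (adjusted p = 0.00284), and with no filter on low values it did not pass (adjusted p = 0.0739).

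SYNM, on chromosome 15 (99638420 to 99675798, plus strand), encodes synemin, which ties filaments to adhesion sites and to the costameres of muscle. Its normalized counts were 1947 and 1981 in SB, 2448 and 2596 at 3 days and 3902 and 3906 at 7 days, again 3 separate groups in rising order. The rise at 3 days was 1.28-fold (log2 fold change 0.36, SE 0.09, adjusted p = 0.00802) and that at 7 days 1.99-fold (0.99, SE 0.09, adjusted p = 1.99e-06). The 7 day libraries were also 1.55-fold above those of 3 days (0.63, SE 0.09, adjusted p = 0.000327). The call at 3 days was lost without TGFβ 3 day replicate 2 (log2 fold change 0.32, adjusted p = 0.0717). An antisense RNA, SYNM-AS2, shares 2027 exon bases with SYNM in the GENCODE annotation and had no row in the table.

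DES, on chromosome 2 (220283099 to 220291457, plus strand), was rare in every library. It had 1 and 5 normalized counts in SB, 19 in each library at 3 days and 30 and 21 at 7 days. Both SB libraries were below all 4 TGFβ libraries. The fitted log2 fold change of DES was 2.53 at 3 days (SE 0.52, adjusted p = 0.0032) and 2.91 at 7 days (SE 0.52, adjusted p = 0.000537), and 7 days did not differ from 3 days past the threshold (0.38, SE 0.52, adjusted p = 0.601). At such counts the fitted value depends on the pseudocount and was 1.63 at 3 days with a pseudocount of 5, and with no filter on low values the 3 day call was lost (adjusted p = 0.098). The SB libraries also set its size: without SB replicate 1 the log2 fold change was 1.74 at 3 days and 2.12 at 7 days, and without SB replicate 2 it was 3.32 and 3.71. As a ratio of the summed counts, DES was 6.33-fold higher at 3 days (95% interval of counting error 2.66 to 18.3). At 7 days it was 8.5-fold higher (3.65 to 24.2). These intervals leave out the spread between libraries. DES passed the filter only through the TGFβ groups, so neither the intervals nor the adjusted p-values test whether it rose. Of 9 markers of skeletal and cardiac muscle, 6 were in the table, none reached a mean of 10, and their sum was 4 to 6 normalized counts in SB, 5 to 11 at 3 days and 7 to 10 at 7 days.

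The 3 neuronal filament genes were at or near 0. NEFL had 2 normalized counts in 1 library at 3 days and 0 in the other 5. NEFM had between 0 and 2, and INA had 1 in a library at each time of TGFβ and 0 elsewhere. In these libraries 3 reads correspond to 2.69 to 3.29 normalized counts, which is the level a reading of 0 still allows as far as counting error goes, so no difference between groups was detectable for these genes at this depth. The neuronal marker list summed to between 9449 and 10467 normalized counts in SB, 12582 and 12792 at 3 days and 14854 and 15430 at 7 days, and SYT1, TUBB3 and MAP2 made up nearly all of it. These members did not move together: at 7 days against SB, SYT1 was higher by 1.06 (adjusted p = 1.57e-06) and SNAP25 by 0.65 (adjusted p = 0.00812) on the log2 scale, MAP2 was lower (-1.34, adjusted p = 6.11e-06) and TUBB3 did not pass (-0.23, adjusted p = 0.204). Of the rest, ELAVL3, DCX and RBFOX3, which are largely restricted to neurons, had 0, at most 1 and at most 3 normalized counts in any library. The part of this list in the NES values was not tested.

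LMNA, on chromosome 1 (156052364 to 156109872, plus strand), gives lamins A and C, whose amounts are known to rise with tissue stiffness. It had 18433 and 17040 normalized counts in SB, 12881 and 16538 at 3 days and 15290 and 12760 at 7 days. All 4 TGFβ libraries were below both SB libraries, while the 2 times of TGFβ overlapped. The log2 fold change was -0.28 at 3 days (SE 0.12, adjusted p = 0.104) and -0.34 at 7 days (SE 0.12, adjusted p = 0.03), and only the value at 7 days passed the threshold. The 7 day call was lost without SB replicate 1 (-0.29, adjusted p = 0.147), without TGFβ 7 day replicate 2 (-0.21, adjusted p = 0.272), with no filter on low values (adjusted p = 0.233) and without the trend of variance on expression (adjusted p = 0.131). Without TGFβ 3 day replicate 2, the 3 day value became -0.46 and passed (adjusted p = 0.015). Between 7 and 3 days the difference was -0.06 (adjusted p = 0.719), and its sign turned without TGFβ 3 day replicate 2 (0.12) or TGFβ 7 day replicate 2 (0.07).

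LMNB1, on chromosome 5 (126112315 to 126172712, plus strand), encodes lamin B1, whose loss is widely used as a marker of senescent cells. Its normalized counts were 12191 and 12295 in SB, 9967 and 9298 at 3 days and 6864 and 7146 at 7 days. The 3 groups were separate and stepped downward. LMNB1 at 3 days was 0.79 of its SB level (log2 fold change -0.35, SE 0.08, adjusted p = 0.00618) and at 7 days 0.57 of it (-0.81, SE 0.08, adjusted p = 5.63e-06). The further fall from 3 to 7 days was -0.46 on the log2 scale (SE 0.08, adjusted p = 0.00138). Without TGFβ 3 day replicate 2 the 3 day call was lost (-0.30, adjusted p = 0.0654).

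LMNB2, on chromosome 19 (2427636 to 2456957, minus strand), encodes lamin B2, the second B-type lamin. It had 6295 and 6896 normalized counts in SB, 4484 and 5457 at 3 days and 4107 and 3406 at 7 days, with no overlap between groups. The log2 fold change was -0.41 at 3 days (SE 0.12, adjusted p = 0.0193), -0.82 at 7 days (SE 0.12, adjusted p = 0.000106) and -0.40 between 7 and 3 days (SE 0.12, adjusted p = 0.0201). The 7 day call against SB held with each library left out. The 3 day call was lost without SB replicate 2 (-0.35, adjusted p = 0.106) or TGFβ 3 day replicate 1 (-0.27, adjusted p = 0.184), and the call between the times without TGFβ 3 day replicate 2 (-0.26, adjusted p = 0.167) or TGFβ 7 day replicate 2 (-0.27, adjusted p = 0.207). With no filter on low values, the LMNB2 calls at 3 days (adjusted p = 0.195) and between the times (adjusted p = 0.189) were also lost, as they were without the variance trend (adjusted p = 0.112 and 0.106). LMNA and LMNB2 transcripts are rich in G and C, at 61.45% and 61.07%, against 47.78% for LMNB1. After the correction for GC content and length, LMNB2 changed by -1.08 at 7 days against SB (adjusted p = 1.38e-06) and by -0.64 between 7 and 3 days (adjusted p = 0.000131), and LMNA by -0.48 at 7 days against SB (adjusted p = 0.00151).

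**Figure D2:**
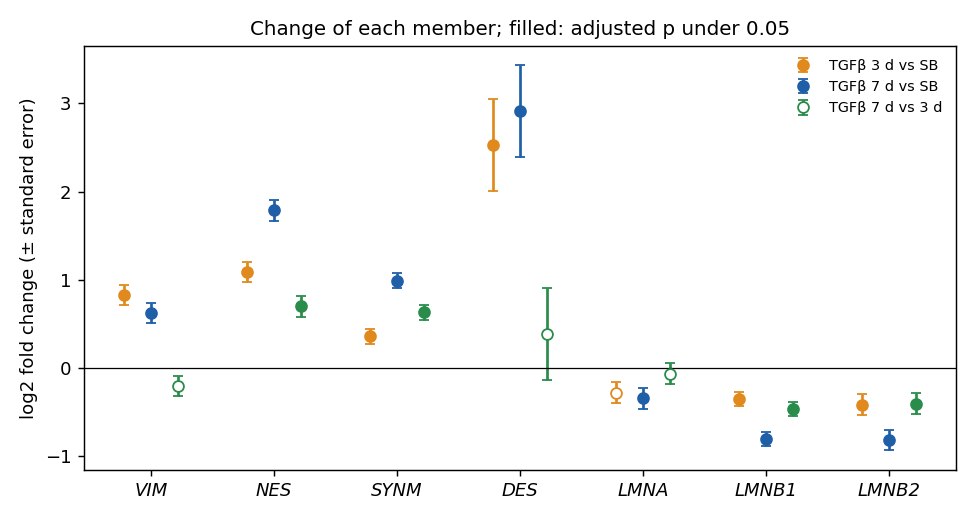
Log2 fold change (vertical axis) of each of the 7 genes in the 3 comparisons, with bars of 1 standard error from limma. Filled points passed an adjusted p under 0.05, and DES, from its low counts, carried the widest bars.

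Within-library ratios, which no scaling of libraries can change, were used to compare the lamins with each other. They were not corrected for GC content, which is 47.78% for LMNB1 against 61.45% for LMNA and 61.07% for LMNB2. The LMNA to LMNB1 ratio of normalized counts was 1.51 and 1.39 in the SB libraries, 1.29 and 1.78 after 3 days of TGFβ and 2.23 and 1.79 after 7 days. Both 7 day libraries were above both SB libraries, and 3 days spanned the SB range. The mean log2 ratio was 0.53 ± 0.09 for SB, 0.60 ± 0.33 for 3 days and 0.996 ± 0.23 for 7 days (SD, n = 2). The difference between 7 days and SB was 0.46 on the log2 scale, with an exact two-sided permutation p = 0.33, the smallest that 2 against 2 libraries allow. The LMNB1 to LMNB2 ratio stayed between 1.67 and 2.22 in all 6 libraries and overlapped between the groups, with log2 means of 0.89 ± 0.08, 0.96 ± 0.27 and 0.91 ± 0.23 in SB, 3 days and 7 days (SD, n = 2). After the correction for GC content and length, LMNB2 changed by -1.08 at 7 days against SB. LMNB1 stayed between -0.85 and -0.78 there in every alternative that kept all libraries. The likeness of the 2 B-type lamins at 7 days thus depends on that correction.

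Levels of different genes were compared per kilobase of the canonical transcript in GENCODE. By this measure VIM, the most abundant, had 32370 normalized counts per kilobase for SB, 56770 for 3 days and 49410 for 7 days. The lamins followed, with LMNA at 5581, 4629 and 4413, LMNB1 at 4236, 3333 and 2424 and LMNB2 at 1423, 1073 and 810.6 in the same order. NES, at 270.7, 570.5 and 927.5, and SYNM, at 267.1, 343.0 and 531.0, began at like levels in SB, where their libraries overlapped, and separated under TGFβ. DES had 1.34, 8.47 and 11.4.

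**Figure D3:**
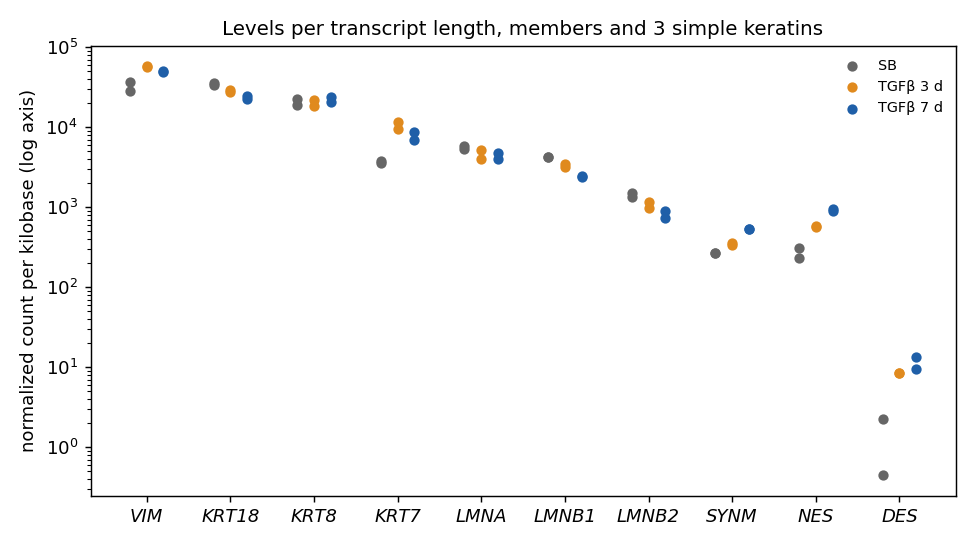
Normalized count per kilobase of canonical transcript on a log axis, for 7 filament genes and the keratins KRT18, KRT8 and KRT7, with 1 point for each library. VIM and KRT18 were within the same range in SB and separated under TGFβ, and NES passed LMNB2 at 7 days, when LMNB2 had fallen to 810.6 and NES had risen to 927.5.

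The keratins of simple epithelia, KRT7, KRT8, KRT18 and KRT19, were set beside vimentin. KRT18 had 34700 normalized counts per kilobase for SB, 28390 for 3 days and 23520 for 7 days, and KRT8 had 20680, 20320 and 22280. Both have many processed pseudogene copies, so their counts are uncertain where reads could be split. VIM relative to the sum of KRT8 and KRT18 was 0.974 and 0.665 in SB, 1.72 and 1.496 at 3 days and 1.36 and 1.57 at 7 days, so that all 4 TGFβ libraries were above both SB libraries. The mean log2 ratio was -0.31 ± 0.39 for SB, 0.68 ± 0.14 for 3 days and 0.55 ± 0.15 for 7 days (SD, n = 2), each TGFβ group against SB with an exact two-sided permutation p = 0.33, again the smallest possible. Of the 4 keratins, KRT7 was called higher (log2 fold changes of 1.51 and 1.06 at 3 and 7 days, adjusted p = 1.85e-06 and 1.57e-05) and KRT18 lower (-0.29 and -0.56, adjusted p = 0.0215 and 0.000144) at each time against SB. Between 7 and 3 days both were lower, with -0.45 for KRT7 (adjusted p = 0.0131) and -0.27 for KRT18 (adjusted p = 0.026). The called share of the 4 keratins was 50% in each comparison. Of all genes tested, 29.0% were called at 3 days against SB, 54.5% at 7 days against SB and 33.2% between the times. The keratin share at 7 days against SB was thus near that of all genes. The count of 2 called keratins became 1 at 3 days without SB replicate 2, TGFβ 3 day replicate 1 or TGFβ 7 day replicate 2, each of which ended the KRT18 call. Between the times the KRT18 call was lost without any single TGFβ library, and the KRT7 call without TGFβ 3 day replicate 2 (adjusted p = 0.111) or TGFβ 7 day replicate 2 (adjusted p = 0.165). In those last cases the 1 keratin called was higher and none was lower.

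Promoter sequence is shown for NES, SYNM, LMNB1 and LMNB2, which were called in all 3 comparisons, NES and SYNM in 1 direction and LMNB1 and LMNB2 in the other. Each run is the 250 bases before the start of the canonical transcript, from RefSeq promoter windows placed on GRCh37, in the direction of the gene. Capitals mark matches to the motifs searched on both strands. Of the 2 windows of LMNB1, the one at the canonical start is shown. The annotated SYNM and LMNB1 genes begin upstream of their runs, and sequence at those starts was not searched. The positions are chr1:156647200-156647449 (minus strand) for NES, chr15:99645036-99645285 (plus strand) for SYNM, chr5:126112578-126112827 (plus strand) for LMNB1 and chr19:2456958-2457207 (minus strand) for LMNB2.
NES: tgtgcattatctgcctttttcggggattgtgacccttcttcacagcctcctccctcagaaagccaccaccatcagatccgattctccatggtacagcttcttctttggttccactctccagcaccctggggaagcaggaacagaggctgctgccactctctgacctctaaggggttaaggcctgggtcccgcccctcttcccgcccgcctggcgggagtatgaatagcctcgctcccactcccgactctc
SYNM: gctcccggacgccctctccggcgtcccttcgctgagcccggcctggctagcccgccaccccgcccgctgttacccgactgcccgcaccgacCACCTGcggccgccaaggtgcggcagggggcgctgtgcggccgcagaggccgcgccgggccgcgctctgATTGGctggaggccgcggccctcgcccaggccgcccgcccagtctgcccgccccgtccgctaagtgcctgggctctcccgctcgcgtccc
LMNB1: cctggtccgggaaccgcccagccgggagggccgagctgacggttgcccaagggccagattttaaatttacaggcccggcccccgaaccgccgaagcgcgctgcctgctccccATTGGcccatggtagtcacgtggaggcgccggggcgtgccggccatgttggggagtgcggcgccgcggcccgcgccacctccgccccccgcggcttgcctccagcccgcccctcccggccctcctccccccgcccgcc
LMNB2: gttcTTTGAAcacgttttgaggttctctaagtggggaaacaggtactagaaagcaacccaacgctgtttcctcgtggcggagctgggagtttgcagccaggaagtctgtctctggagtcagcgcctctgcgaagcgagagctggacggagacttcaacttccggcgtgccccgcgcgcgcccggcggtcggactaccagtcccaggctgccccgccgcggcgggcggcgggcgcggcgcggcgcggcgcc
The motifs were the CHR element of cell cycle genes (TTTGAA), found in 13.3% of 35116 RefSeq promoters of the same length, the CCAAT box (CCAAT, 32%), an E2F site (TTTNNCGC, 5.92%), an AP-1 site (TGANTCA, 6.57%) and an E-box of the kind bound by SNAIL and ZEB factors (CAGGTG, 17.5%). LMNB2 held 1 CHR element, at -246 from the start, and LMNB1 1 CCAAT box on the minus strand at -138. SYNM held 1 CCAAT box at -90 and 1 E-box at -159, both on the minus strand, and the NES run held none of the 5. These are matches of letters and were not tested for binding.

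Markers of proliferation were lower beside the B-type lamins. Of 10 markers, 7 were called lower at 3 days against SB, 10 at 7 days against SB and 10 between 7 and 3 days. Of all genes tested, 14.0%, 26.9% and 16.2% were lower in the same order. The median log2 fold changes of the markers were -0.43, -0.89 and -0.45, against -0.02, 0.00 and 0.02 over all genes tested. BUB1, a spindle checkpoint kinase, changed by -0.72 at 3 days and -1.23 at 7 days against SB (adjusted p = 9.44e-05 and 5.07e-07). TYMS, which makes thymidylate for DNA synthesis, changed by -0.57 and -1.25 (adjusted p = 0.00194 and 1.89e-06) and by a further -0.68 between the times (adjusted p = 0.000848). MCM5, a subunit of the replicative helicase, changed by -0.59 between 7 and 3 days (adjusted p = 0.00377). Between the times, 6 of the 10 were called without TGFβ 3 day replicate 1 and 6 without TGFβ 7 day replicate 1, and MCM5 did not pass without TGFβ 7 day replicate 2 (adjusted p = 0.0568). The changes of LMNB1 and LMNB2 lay inside the range of the 10 markers at each time, which ran from -0.72 to -0.08 after 3 days and from -1.25 to -0.54 after 7, while LMNA at 7 days, at -0.34, lay above it. The part of proliferation in the lamin values was not tested.

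**Figure D4:**
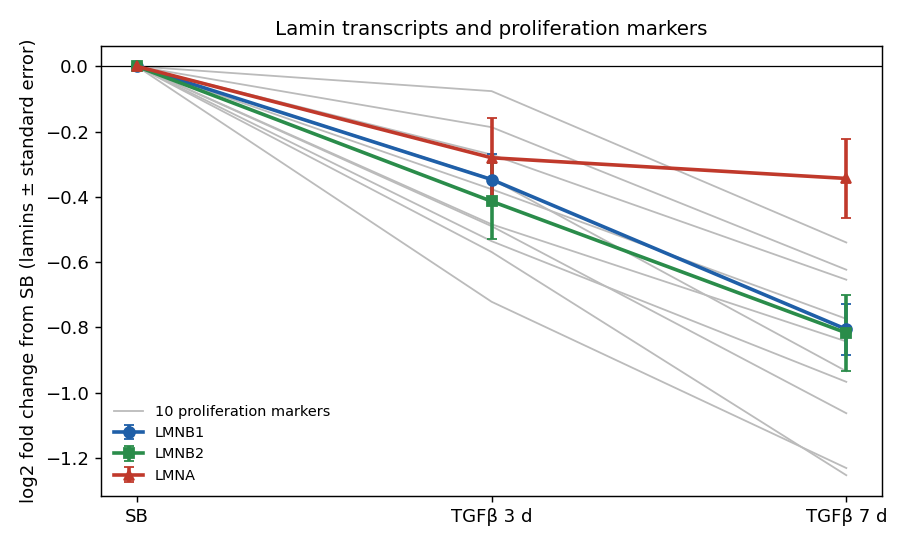
Log2 fold change from SB (vertical axis) at 3 and 7 days of TGFβ for the 3 lamin genes, with bars of 1 standard error, and for 10 proliferation markers in grey. LMNB1 and LMNB2 reached -0.81 and -0.82 at 7 days, among the grey lines, and LMNA reached -0.34.

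Genes whose profile over the 6 libraries lay nearest to a filament gene were sought by the root mean square difference of log2 values centred on SB, over 11388 genes with a mean of at least 100. For LMNB1 the nearest were SCML1 (0.03), E2F8 (0.03), an E2F family member, and FKBP4 (0.04), a co-chaperone of HSP90. For VIM they were SPDL1 (0.05), SLC36A1 (0.06) and GPR176 (0.06), and for LMNA MSRB1 (0.04), RPUSD2 (0.04) and MUS81 (0.04). These distances are descriptions over 6 libraries of 3 groups.

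Of 8 other filament genes outside the keratins, 6 were tested, and at each time of TGFβ against SB 2 were called higher and 1 lower. That is 50% of those tested, against 29.0% of all genes at 3 days and 54.5% at 7 days. IFFO1, a nuclear filament-like protein, was higher by 1.32 at 3 days and 1.28 at 7 days on the log2 scale (adjusted p = 0.000185 and 0.000104), and IFFO2 was lower, at -0.49 and -0.72 (adjusted p = 0.00177 and 4.42e-05). The other riser was SYNC, named after its values were seen, which encodes syncoilin, a filament protein that binds desmin in muscle. SYNC had 19 and 20 normalized counts in SB, 75 and 81 at 3 days and 92 and 73 at 7 days. Between 7 and 3 days limma called 0 of the 6, and 2 had an unadjusted p under 0.05. With either SB library left out, 1 was called.

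Linkers tie filaments to junctions, actin and microtubules or act as their chaperones, and 9 of 10 were tested. At 3 days 3 were called higher and 2 lower, at 7 days against SB 4 higher and 2 lower, and between the times 2 higher and 1 lower. The called shares were 55.6%, 66.7% and 33.3%, against 29.0%, 54.5% and 33.2% of all genes. The share between the times was thus near that of all genes. The linker counts and shares include CRYAB, a chaperone of desmin named after its values were seen, which passed the filter only through the TGFβ groups. Without it, 2 of 8 were higher and 2 lower at 3 days, 3 higher and 2 lower at 7 days, and 1 in each direction between the times. PLEC (plectin, the main cross-linker of vimentin) had 7292 and 8192 normalized counts in SB and between 11629 and 17875 in the TGFβ libraries, with log2 fold changes of 0.90 at 3 days and 0.93 at 7 days (adjusted p = 0.00266 and 0.000932). MACF1, which links actin and microtubules, was higher by 0.49 and 0.58 (adjusted p = 0.00322 and 0.000443). PPL (periplakin, which binds keratins and vimentin at the cell edge) was lower, at -1.58 and -0.98 (adjusted p = 0.000145 and 0.00191), and regained 0.60 between 3 and 7 days (adjusted p = 0.0466). HSPB1, a small heat shock protein that associates with filaments, was lower at -0.70 and -0.67 (adjusted p = 0.0117 and 0.00715), and DSP, the desmosomal linker of keratins, fell between the times (-0.38, adjusted p = 0.0223). CRYAB had 0 in both SB libraries, 12 and 10 at 3 days and 30 and 37 at 7 days. After the correction for GC content and transcript length, the 9 linkers gave 1 higher and 5 lower at 7 days against SB and 1 higher and 4 lower between the times, and PLEC (0.20, adjusted p = 0.135) and MACF1 (0.07, adjusted p = 0.25) did not pass at 7 days. The HSPB1 call was lost at 3 days without SB replicate 1 (adjusted p = 0.0591), SB replicate 2 (adjusted p = 0.0622) or TGFβ 3 day replicate 1 (adjusted p = 0.102), and at 7 days without TGFβ 7 day replicate 2 (adjusted p = 0.0895). Between the times the 3 calls became 1 without TGFβ 3 day replicate 1 or 2 and 0 without TGFβ 7 day replicate 1 or 2, and the PPL call was lost with equal library totals (adjusted p = 0.0677).

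At the nuclear envelope, 22 partners of the lamins were tested. At 3 days against SB 2 were higher and 7 lower, at 7 days 6 were higher and 10 lower, and between the times 1 was higher and 6 lower, with medians of -0.09, -0.22 and -0.06. The called shares were 40.9%, 72.7% and 31.8%, against 29.0%, 54.5% and 33.2% of all genes, so the last was near that of all genes. Of all genes, 14.9%, 27.7% and 17.0% were higher and 14.0%, 26.9% and 16.2% lower. The 6 of 22 called higher at 7 days were thus near the 27.7% of all genes. SYNE1 (nesprin-1, which joins the nucleus to the cytoskeleton) had 3682 and 3683 normalized counts in SB, 1003 and 1114 at 3 days and 608 and 679 at 7 days. Against SB it showed the deepest fall of the list, -1.80 at 3 days and -2.52 at 7 days (adjusted p = 1.51e-07 and 4.09e-09), and it changed by -0.72 between them (adjusted p = 0.000492). SYNE2 (nesprin-2) was lower at 3 days (-0.66, adjusted p = 0.032) and 7 days (-0.58, adjusted p = 0.0319). The SB libraries of SYNE2 had 609 and 1091 normalized counts. SYNE3 (nesprin-3, which binds plectin) was lower at 3 days (-0.55, adjusted p = 0.0467) and 7 days (-1.51, adjusted p = 4.17e-05). SYNE3 also fell between the times (-0.96, adjusted p = 0.00307). SUN2, the inner membrane partner of nesprins, was higher by 0.56 at 7 days (adjusted p = 0.00296) and 0.51 between the times (adjusted p = 0.0107). ANKLE2, a LEM domain protein of nuclear envelope assembly, had 3860 and 3713 normalized counts in SB and between 7499 and 8195 in the TGFβ libraries, a rise of 1.11 at 3 days and 1.02 at 7 days (adjusted p = 8.68e-07 and 8.04e-07). LEMD3, another LEM domain protein that also binds SMADs, was higher by 0.31 at 3 days (adjusted p = 0.0224). Its rise at 7 days against SB was 0.46 (adjusted p = 0.000926). The LEMD3 call at 3 days was lost without SB replicate 2 or either TGFβ 3 day library (adjusted p from 0.0653 to 0.137), that of SYNE2 without SB replicate 2 (-0.24, adjusted p = 0.2) or TGFβ 3 day replicate 1 (adjusted p = 0.102), and that of SUN2 between the times without TGFβ 3 day replicate 1 (adjusted p = 0.0989) or TGFβ 7 day replicate 1 (adjusted p = 0.119). The 9 calls at 3 days became 5 without SB replicate 2, 3 without TGFβ 3 day replicate 1 and 5 without TGFβ 3 day replicate 2, and the 7 between the times became 4 without TGFβ 7 day replicate 2.

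Prelamin A and the B-type lamins are farnesylated and carboxymethylated after translation, and none of the 5 genes for these enzymes (FNTA, FNTB, ICMT, RCE1 and ZMPSTE24) was called by limma in any comparison, with 0 at an unadjusted p under 0.05. Without SB replicate 2, 1 was called lower at 7 days. Kinases that phosphorylate vimentin or lamins, which drives disassembly of filaments in mitosis, were tested for 11 of 12 genes. At 3 days 4 were higher and 3 lower, at 7 days 4 were higher and 6 lower, and between the times 1 was higher and 4 lower. The called shares were 63.6%, 90.9% and 45.5%, against 29.0%, 54.5% and 33.2% of all genes. By direction, all genes had 14.9%, 27.7% and 17.0% higher and 14.0%, 26.9% and 16.2% lower. AURKB, the mitotic kinase that acts on vimentin at the cleavage furrow, had 3403 and 3184 normalized counts in SB, 2341 and 2494 at 3 days and 1353 and 1311 at 7 days, with changes of -0.45, -1.31 and, between the times, -0.86 (adjusted p = 0.00311, 3.06e-07 and 6.49e-05). PLK1, also mitotic, changed by -0.38 at 3 days, -0.92 at 7 days and -0.54 between the times (adjusted p = 0.00843, 6.42e-06 and 0.0013). PRKCE changed by -0.48 at 3 days and -0.73 at 7 days (adjusted p = 0.0149 and 0.000474). CDK5, a kinase of neurons that phosphorylates vimentin and nestin, was higher by 0.40 and 0.68 (adjusted p = 0.0284 and 0.000555). PRKCD was higher by 0.47 at 3 days (adjusted p = 0.00249) and PRKCA by 0.30 at 7 days and 0.26 between the times (adjusted p = 0.0059 and 0.0212). The split between higher and lower kinases moved with the processing. With equal library totals 1 was higher and 5 lower at 3 days, and after the correction for GC content and length 1 was higher and 6 lower at 7 days, when PRKCA was at -0.03 (adjusted p = 0.737). CDK5 at 3 days did not pass with equal library totals (adjusted p = 0.0524) or without SB replicate 2 or either TGFβ 3 day library (adjusted p from 0.0792 to 0.148). PRKCE at 3 days did not pass without either TGFβ 3 day library (adjusted p = 0.094 and 0.0547), PRKCA at 7 days without TGFβ 7 day replicate 2 (adjusted p = 0.0551), and PRKCA between the times without any single TGFβ library (adjusted p from 0.0863 to 0.139). Without TGFβ 3 day replicate 1 or 2, 2 or 3 kinases were called at 3 days, and without TGFβ 7 day replicate 2, 6 were called at 7 days (1 higher and 5 lower) and 3 between the times.

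**Figure D5:**
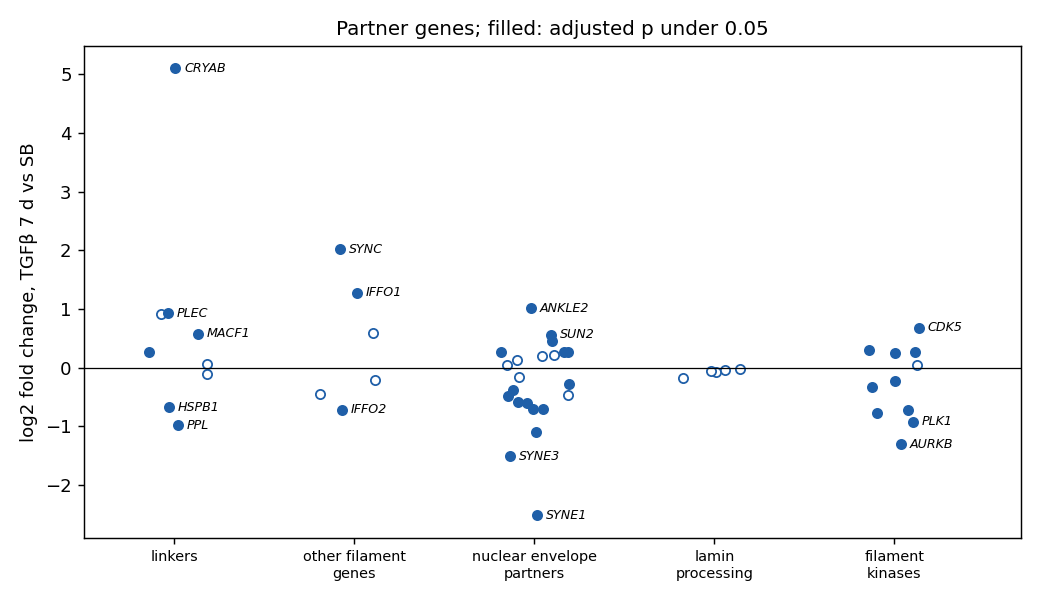
Log2 fold change at 7 days of TGFβ against SB (vertical axis) for the tested genes of 5 lists, with filled points past an adjusted p under 0.05. SYNE1 (-2.52) and AURKB (-1.31) were lowest in their lists, and the height of CRYAB depends on the pseudocount because both SB libraries read 0.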

How the data were processed

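RNA from H2087-LCC cells was sequenced with a kit that does not mark strand. The authors mapped the reads to hg19 with STAR, assigned them to genes with HTSeq (0.6.1p1) and normalized them to library size with DESeq2. The deposited table holds these normalized counts rounded to whole numbers, a score and not raw counts, so no negative binomial model was fitted here. From the table, log2(value + 1) was fitted with limma (3.58.1, R 4.3.3) by group over all 6 libraries, with a variance trend, for genes with a mean of at least 10, with 3 residual degrees of freedom, and p-values were adjusted over 14395 genes. All 10 genes were named in every library. From each list, the 2 with the largest rise and the 2 with the largest fall past the threshold at a mean of at least 100 were named per comparison. The genes and lists were chosen with earlier results of these data known. Within-library ratios were compared by exact permutation tests.

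Depth per library was estimated from the spacing of low values, at 32000000 to 40000000 assigned reads, which bounds counting error only. In SB, 3 day and 7 day pairs, squared differences between libraries were 11, 8.81 and 7.35 times the counting variance at the median, so no library was a copy of another. Gene positions, transcript lengths and GC content came from GENCODE v44 on GRCh37, the authors' build but not necessarily their annotation, and were found for 17662 of 21293 genes. Promoters were RefSeq windows matched to GRCh37. On simulated data for the 3 day comparison, 14382 genes were tested and 200 were changed. There the fit called 95 of 100 genes changed 1.5-fold, 99 of 100 changed 2-fold and 4 unchanged genes. Whether these rates hold at the spread of the real libraries was not tested. Alternatives changed the pseudocount, the filter, the scaling, the trend, the libraries in the fit and the replicate block, left out each library in turn and, added after the data were seen, corrected for GC content and length. Figures were drawn with matplotlib 3.10.9.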

Additional observations from a re-analysis of the deposited data

Results flagged for a closer look

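For 4 of the 7 genes tested the change from SB differed between 7 and 3 days by limma, where 33.2% of all genes tested were called. As both times share the SB libraries, this is the comparison of 7 with 3 days. SB cells were sampled at day 3 only, so TGFβ exposure and time in culture cannot be told apart in it. The difference was 0.70 on the log2 scale for NES (adjusted p = 0.00121) and 0.63 for SYNM (adjusted p = 0.000327), both with a larger rise at 7 days in 2 of 2 libraries. It was -0.46 for LMNB1 (adjusted p = 0.00138) and -0.40 for LMNB2 (adjusted p = 0.0201), both with a deeper fall at 7 days in 2 of 2 libraries. With no filter on low values, the calls of NES and LMNB2 were lost. That of LMNB2 was also lost without the variance trend and depended on single libraries.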

How the results depend on the processing

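Of 807 recomputed values, 730 were scored the same. A fold change had to keep its direction and its side of the threshold. A count of calls had to stay within 1.5 times, whatever its split into higher and lower. A ratio difference had to move by less than 1 pooled SD, whatever its sign. With single libraries left out, the LMNA to LMNB1 difference at 3 days against SB ranged from -0.16 to 0.30. The LMNB1 to LMNB2 differences took both signs in each comparison. With no filter on low values, called members fell to 3 at 3 days against SB and 2 at 7 against 3 days; linkers to 1, 2 and 1 in the 3 comparisons; envelope partners to 3 at 3 days and 2 between the times; kinases to 3 at 3 days and 6 at 7 days; proliferation markers to 4 at 3 days and 2 between the times; keratins to 1 at 3 days and 0 between the times. Without the variance trend, linkers fell to 2 at 3 days and 1 between the times, envelope partners and kinases to 3 each at 3 days, proliferation markers to 5 between the times, and keratins to 1 and 0. With only the 4 libraries compared, kinases fell to 4 and keratins to 1 at 3 days, and other filament genes rose to 1 between the times. With the GC content and length correction, calls between the times were 1 other filament gene, 5 linkers, 1 lamin processing enzyme and 8 kinases, and 1 lamin processing enzyme at 7 days against SB, as with equal library totals. The GC content and length correction turned the sign of 1 of the 48 calls of named list genes, PRKCA at 7 days against SB, and 4 others lost their call; without the variance trend 14 of the 48 lost it and with no filter 18. The cause of these moves was not tested. The number of all genes called was recomputed only for the other scalings and the replicate block. Whether the moves under the other settings, or with a library left out, are particular to these lists was therefore not tested.

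With 1 library left out, calls ranged as follows at 3 days against SB: envelope partners 3 to 6, kinases 2 to 5, keratins 1 to 2. At 7 days against SB: lamin processing 0 to 1, kinases 6 to 10. Between the times: other filament genes 0 to 1, linkers 0 to 4, envelope partners 4 to 7, kinases 3 to 6, proliferation markers 6 to 10, keratins 1 to 3. The LMNA difference between the times ranged from -0.24 to 0.12. A lone library left in a group was assumed to vary like the others. DES had no value at a mean of at least 50.

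Deviations of same-numbered libraries correlated at 0.14 (SB with 3 days), -0.1 (SB with 7 days) and -0.292 (3 with 7 days) over 14395 genes. The signs differed, so the numbers were not treated as a pairing in the main fit. At -0.292, TGFβ 3 day replicate 1 tended to deviate like TGFβ 7 day replicate 2. The source of that shared deviation was not tested. With the replicate block, 3943, 7546 and 4485 genes were called at 3 days, 7 days and between the times, against 4170, 7851 and 4775. Equal library totals gave 1819 genes higher and 2552 lower at 3 days against SB, where the authors' scaling gave 2149 and 2021. At 3 reads a library, 2.69 to 3.29 normalized counts, depth limits NEFL, NEFM, INA and DES.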
